A study of Mus musculus with 15 samples.

Results

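TER119-positive fetal liver cells that carry a gene trap in Klf8 were compared with wild-type cells, in embryos whose Klf3 gene is intact. The comparison took the arrays by their labels, 4 Klf8 gene-trap arrays (Klf8gt) and 4 wild-type arrays (WT), so 8 of the 15 arrays of the study. All transcript clusters with a gene symbol were tested, 23410 of 35556. The cells came from FVB/NJ embryos at stage E13.5, and beads against TER119, an antigen of maturing erythroid cells, had been used to purify them. The labels give the Klf8gt group the genotype Klf8gt/gt and the WT group no mutation. The other 7 arrays, 4 doubly mutant (Klf3-/- Klf8gt/gt, DKO) and 3 Klf3-null (Klf3-/-, Klf3KO), entered the linear model to share the estimate of the spread, and they give the effect of the same trap where Klf3 is missing. The labels do not state whether each array is 1 embryo or a pool, nor which arrays share a litter, so the p-values reflect only how far these samples scatter, in part perhaps for technical reasons. The trap's insertion site and the number of embryonic stem cell clones behind it are not given in the sources used here.

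KLF8 is a Kruppel-like factor encoded on the X chromosome. Its zinc fingers bind CACCC boxes and GC-rich DNA, and its N-terminal part recruits the corepressor CtBP, a mode of action it shares with KLF3. In erythroid cells KLF1 activates genes through the same CACCC boxes and drives the Klf3 gene, and KLF3 in turn represses Klf8, so that Klf8 transcripts are scarce while KLF3 is present. The fetal liver at this stage is the main site of red cell formation, and its erythroblasts mature in contact with macrophages and among hepatoblasts, megakaryocytes, endothelium and stromal cells.

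The signals are log2 values, with array medians between 6.28 and 6.41. They carry no detection call, so a fold is given only where both group means lay above the array medians, and lower signals are given as log2 differences. The erythroid label fitted the arrays. Slc4a1, the red cell anion exchanger, averaged 13.74 in Klf8gt arrays and 13.83 in WT arrays. Alas2, the first enzyme of erythroid haem synthesis, averaged 13.48 in Klf8gt and 13.64 in WT arrays, and Gata1, the master regulator of the lineage, 11.32 in Klf8gt and 11.36 in WT arrays. Hepatocyte transcripts were also among the brightest signals, in spite of the bead purification. Alb (albumin) averaged 14.18 in Klf8gt arrays and 13.99 in WT arrays. Lymphoid transcripts were low, with 4.73 in Klf8gt and 4.74 in WT arrays for Rag1.

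Klf8gt replicate 1 stood apart from the group it is labelled with. Over the tested clusters it correlated with the other 3 Klf8gt arrays at 0.987 to 0.990, and with the 4 WT arrays at 0.993 to 0.996. Klf8gt replicates 2 to 4 correlated with each other at 0.996 to 0.997 and with the WT arrays at 0.987 to 0.994. The labels give no sex, but the Y-linked transcripts Eif2s3y, Kdm5d and Uty were high in Klf8gt replicates 2 and 3 and in all 4 WT arrays, and low in Klf8gt replicates 1 and 4. Since Klf8 is X-linked, the label Klf8gt/gt cannot describe 2 alleles in male cells. Counts of calls over all clusters are given below with and without Klf8gt replicate 1, and many differences only without it. This array was left out because of its values, so the p-values without it describe 3 chosen arrays against WT and are not a test of the groups as labelled.

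Klf8 itself did not distinguish the genotypes in cells with intact Klf3. Its log2 signals were 5.48, 5.42, 5.38 and 5.27 on the Klf8gt arrays, against 5.13, 5.55, 5.34 and 5.43 on the WT arrays. All 8 signals lay below the array medians and the groups overlapped. The difference was 0.02 (95% interval -0.41 to 0.46, exact two-sided permutation p = 0.829, 0.971 after adjustment over 5 genes tested this way; the smallest p that 4 against 4 arrays can give is 0.0286). The cluster therefore checks no label in this comparison, and in particular not that of Klf8gt replicate 1. In Klf3-null cells the same cluster averaged 7.29 in DKO and 8.71 in Klf3KO, a fall of Klf8 with the trap (log2 difference -1.43 ± 0.22 SE, limma adjusted p = 0.0265). Klf3 had signals of 10.21, 10.30, 10.30 and 10.26 in Klf8gt arrays and 10.12, 10.20, 10.27 and 10.51 in WT arrays, a difference of -0.01 with overlapping groups (exact permutation p = 0.971). Of the 20 genes nearest to Klf8 on the X chromosome, 10 on each side, 0 passed the threshold with or without Klf8gt replicate 1. Their differences without that array ran from -0.34 to 0.44, with a median of 0.02.

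With all 4 Klf8gt arrays, no gene passed the test. At an adjusted p under 0.05, 0 of 23410 clusters (0%) differed between Klf8gt and WT cells by limma with Benjamini-Hochberg adjustment. At an unadjusted p under 0.05 there were 3135 (13.4%), of which 1677 were higher in Klf8gt cells (7.16%) and 1458 lower (6.23%). In 1254 clusters (5.36%) every Klf8gt array lay on the same side of all WT arrays. Klf8gt replicate 1 decided this count, since 1683 clusters passed without it. A model in which noisier arrays weigh less also made calls, 4081 in all, and it gave Klf8gt replicate 1 the lowest weight of the 15 arrays, 0.329. Among male embryos alone 318 clusters passed, but that fit keeps only 2 Klf8gt arrays, replicates 2 and 3, and so also leaves out replicate 1.

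The genes with the smallest p over all 4 Klf8gt arrays are named here as not past the threshold. On the higher side they were Bcl6, Iyd, Haao, Cyp2d10 and Pop4, and on the lower side Cdon, H2-M10.3, Fezf1, Rab25 and Olfr671. Bcl6, a transcriptional repressor of germinal centre B cells and of metabolic genes, had log2 signals of 6.01, 6.63, 6.62 and 6.48 in Klf8gt arrays, against 5.70, 5.92, 5.71 and 5.81 in WT arrays. Every Klf8gt array was above every WT array, with replicate 1 the lowest of its group (log2 difference 0.65 ± 0.11 SE, limma adjusted p = 0.170). Cdon, a cell surface co-receptor of Hedgehog ligands, had 5.57, 4.92, 5.06 and 4.96 in Klf8gt arrays and 5.96, 5.90, 5.98 and 5.91 in WT arrays. Every Klf8gt array was below every WT array, with replicate 1 nearest to WT (log2 difference -0.81 ± 0.13 SE, limma adjusted p = 0.106).

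Pop4, which encodes a protein subunit of the RNA-processing enzymes RNase P and RNase MRP, had signals of 7.63, 8.80, 8.73 and 8.74 in Klf8gt arrays, against 7.51, 7.56, 7.36 and 7.62 in WT arrays. Replicates 2 to 4 lay close together and far above WT, and replicate 1 lay just above the highest WT array. The difference was 0.96 ± 0.19 SE with all arrays (limma adjusted p = 0.211), and 1.24 ± 0.08 SE, 2.37-fold, without replicate 1 (adjusted p = 8.82e-06). Without replicate 1 it had the smallest adjusted p of any cluster, and it stayed past the threshold in 24 of 25 alternative settings. In Klf3-null cells the trap gave Pop4 a difference of -0.33 ± 0.21 SE (adjusted p = 0.541). The difference between both effects passed the threshold without replicate 1 (-1.57 ± 0.12 SE, adjusted p = 4.08e-05), and not with it (adjusted p = 0.118). This contrast contains the Klf3-intact difference for which Pop4 was named, so its p-value is no independent test.

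**Figure D1:**
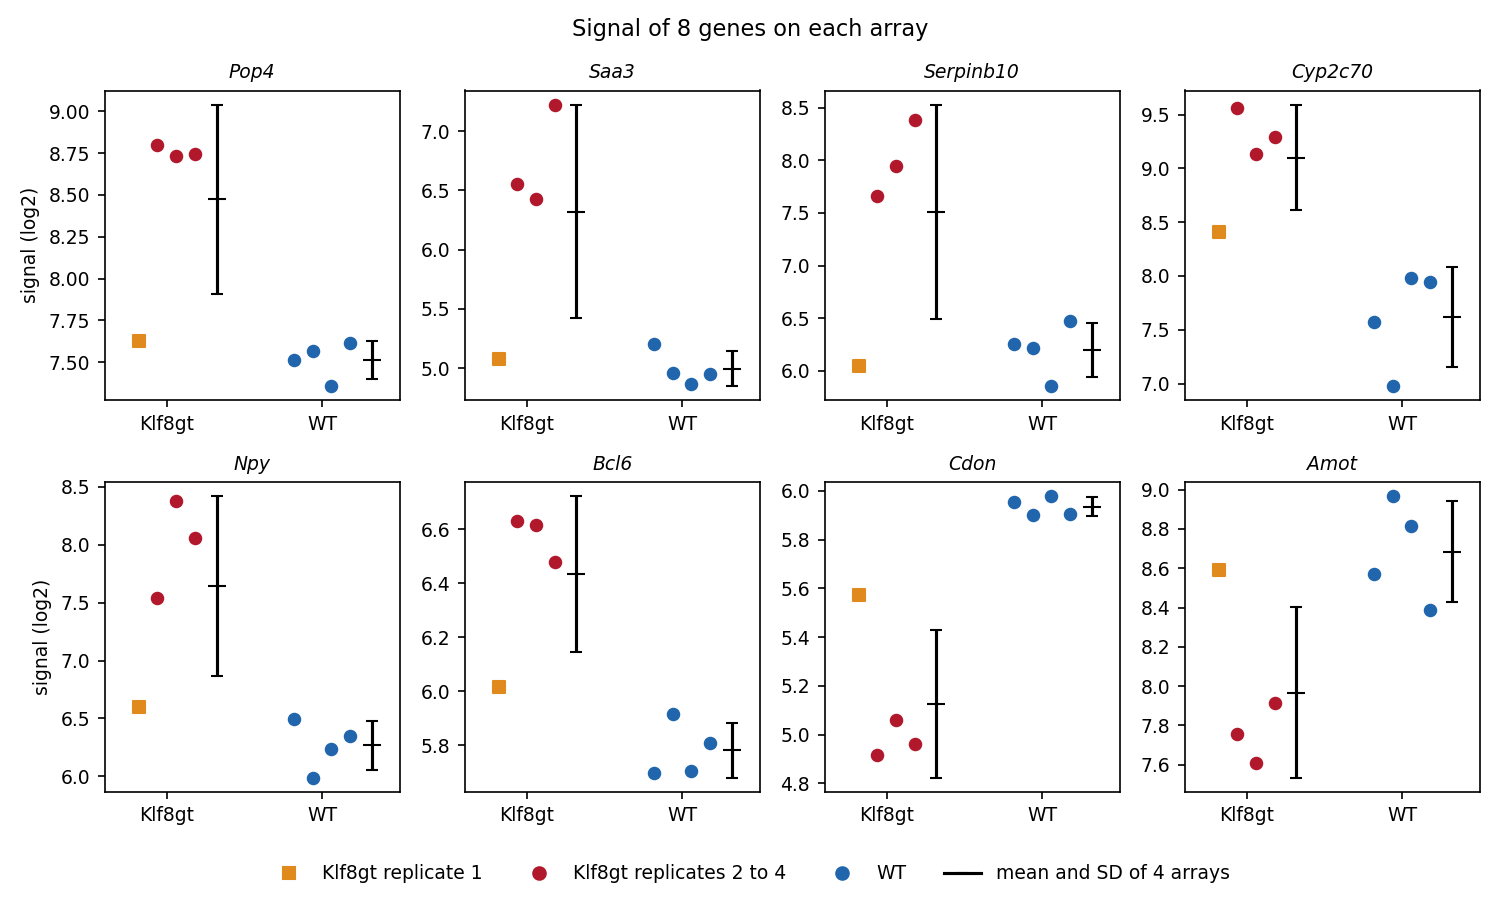
Log2 signal of 8 genes on each of the 4 Klf8gt arrays (left) and the 4 WT arrays (right), with the mean and SD of each group. Klf8gt replicate 1 (square) lay within the WT range for Saa3, Serpinb10 and Amot. Replicates 2 to 4 lay on 1 side of all WT arrays for each gene, as in 30.8% of all tested clusters.

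Without Klf8gt replicate 1, 1683 clusters differed between Klf8gt and WT cells (7.19% of 23410). Of these, 1079 were higher (4.61%) and 604 lower (2.58%), so that 64.1% of the calls were higher. That split depends on the scaling, because 46.2% of the calls were higher after quantile normalisation (432 higher and 503 lower) and 52.5% after median centring (896 and 812). Replicate 1 did not share the pattern in either direction. Its median difference from the WT mean was 0.01 over the 1079 higher clusters, where replicates 2 to 4 had a median of 0.62, and 0.00 over the 604 lower clusters, where they had -0.42. It lay inside the WT range in 674 of the 1079 (62.5%) and in 326 of the 604 (54.0%), shares near the 60.6% of all tested clusters. It lay on the same side of WT as the others in 52.0% and 49.5% of them, against 45.7% of all tested clusters. Klf8gt replicates 2 to 4 lay on 1 side of all WT arrays in 7204 of 23410 clusters (30.8%). Genes named for the largest changes without replicate 1 were required to show this, so for them it is no separate result.

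The 1683 calls also rested on other arrays. They fell to 182 without Klf8gt replicate 2 and to 82 without Klf8gt replicate 4. They fell to 396 without WT replicate 1, 269 without WT replicate 2 and 789 without WT replicate 3, and they rose to 2917 without DKO replicate 1. With sex as a term 625 passed.

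Serpinb10, Saa3 and Npy had the largest rises among the genes named without replicate 1. Serpinb10, a serine protease inhibitor of haematopoietic cells, had log2 signals of 6.05, 7.67, 7.94 and 8.39 in Klf8gt arrays and 6.25, 6.21, 5.85 and 6.47 in WT arrays (difference without replicate 1 of 1.80 ± 0.23 SE, limma adjusted p = 0.00211). Saa3, an acute-phase serum amyloid A protein, had 5.08, 6.55, 6.43 and 7.22 in Klf8gt arrays and 5.20, 4.96, 4.86 and 4.95 in WT arrays (1.74 ± 0.16 SE, adjusted p = 2.48e-04). Npy, which encodes neuropeptide Y, had 6.60, 7.54, 8.37 and 8.06 in Klf8gt arrays, against 6.49, 5.99, 6.24 and 6.35 in WT arrays (1.72 ± 0.34 SE, adjusted p = 0.0164). In Saa3 and Serpinb10 replicate 1 lay among the WT arrays, and in Npy just above the highest of them.

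The next genes are expressed in liver. Cyp2c70, a cytochrome P450 of mouse bile acid metabolism, had 8.41, 9.56, 9.13 and 9.29 in Klf8gt arrays and 7.57, 6.98, 7.98 and 7.94 in WT arrays. Its replicate 1 lay above all WT arrays and below the other 3 (3.28-fold without replicate 1, adjusted p = 0.0118). F13b, the B subunit of coagulation factor XIII, rose 2.83-fold (adjusted p = 0.00666), Car3, a carbonic anhydrase, 2.86-fold (adjusted p = 0.0208), and C1s1, a complement protease, 2.72-fold (adjusted p = 0.00720). Cyp3a16, a fetal liver cytochrome P450, differed by 1.46 ± 0.23 SE from a WT mean below the array medians (adjusted p = 0.00787). The transcripts DQ267101 and DQ267102 rose 3.05-fold and 2.96-fold (adjusted p = 0.0466 and 0.0469), and both lie in the imprinted region of chromosome 12 described further down.

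Falls were smaller, and many lay in weakly measured genes. The WT mean lay above the array medians in 241 of the 604 lower clusters and in 879 of the 1079 higher ones. Of all 23410 tested clusters, 13002 had such a WT mean. Amot, which encodes angiomotin, a junctional regulator of the Hippo pathway, had 8.59, 7.76, 7.61 and 7.92 in Klf8gt arrays and 8.57, 8.97, 8.82 and 8.39 in WT arrays. Replicate 1 lay within the WT range and the other 3 below it (1.90-fold lower without replicate 1, log2 difference -0.92 ± 0.14 SE, limma adjusted p = 0.00575). Cdon fell with a log2 difference of -0.96 ± 0.09 SE (adjusted p = 2.48e-04), from a WT signal below the array medians. Ankrd9 had a difference of -0.69 ± 0.20 SE (adjusted p = 0.0475), Ush1g, a scaffold protein of hair cells, -0.72 ± 0.13 SE (adjusted p = 0.0109), and the olfactory receptor Olfr767 -1.09 ± 0.23 SE (adjusted p = 0.0208). Epp13 fell by 0.69 on the log2 scale at signals below the medians. Rny1 (a small non-coding Y RNA), Pdyn (prodynorphin), Lce1i and Olfr715b passed as lower, with means of Klf8gt replicates 2 to 4 under the lower quartile of signals there and log2 differences between -0.82 and -0.73.

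Of the gene lists, those of hepatocytes had the most calls. Without Klf8gt replicate 1, 6 of 15 plasma proteins of the hepatocyte rose (Apoh, Fga, Fgb, Fgg, Ahsg and Vtn, median of the list 0.85), as did 14 of 22 hepatocyte enzymes, carriers and regulators (median 0.79), while 4.61% of all clusters did and their median difference was -0.03. Among these 22 genes the risers were the transcription factor Foxa3, the urea cycle enzymes Cps1, Otc and Arg1, the tyrosine catabolic enzyme Hpd, the methyltransferase Bhmt, the fatty acid carrier Fabp1, the receptor subunit Asgr2, the glucose transporter Slc2a2, the clotting factors F2 and F10, Serpinc1 (antithrombin), Itih3 and Cyp2d26. In both lists 0 passed with all 4 Klf8gt arrays, where the medians were 0.70 and 0.63. In a bulk sample more hepatocytes and more hepatocyte RNA per cell cannot be told apart.

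Single genes show the pattern. Fga, a fibrinogen chain, had 10.12, 11.12, 10.80 and 10.92 in Klf8gt arrays, against 9.84, 9.22, 9.78 and 9.85 in WT arrays. All Klf8gt arrays were above all WT arrays, replicate 1 by the least, and without it the rise was 2.42-fold (limma adjusted p = 0.0291). Slc2a2 had 9.50, 10.51, 10.27 and 10.14 in Klf8gt arrays and 8.99, 8.63, 9.18 and 9.20 in WT arrays (2.47-fold, adjusted p = 0.0324). Cps1, the entry enzyme of the urea cycle, had 9.04, 10.22, 9.91 and 9.91 in Klf8gt arrays and 8.67, 8.50, 9.09 and 9.02 in WT arrays (2.28-fold, adjusted p = 0.0211). Its replicate 1 lay within the WT range. The 2 brightest members did not pass: Alb differed by 0.22 ± 0.12 SE (adjusted p = 0.226) and Afp (alpha-fetoprotein) by 0.29 ± 0.11 SE (adjusted p = 0.108).

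The counts of hepatocyte calls moved with single arrays more than the sizes did. Of the 37 hepatocyte genes 20 passed without Klf8gt replicate 1, where 1079 of all 23410 clusters were called higher. When Klf8gt replicate 2 or replicate 4 was left out as well, 0 passed, with 119 and 61 of all clusters called higher. Without Klf8gt replicate 3 there were 8 (631 of all clusters). Without WT replicates 1 or 2 there was 1 each (263 and 179), and without WT replicate 3 there were 8 (496). Without DKO replicate 1 there were 31 (1983). The counts over all clusters thus moved with the same arrays. Other settings also lowered the count. With replicate number as a block 4 of the 37 passed as higher, while 1.95% of all clusters did, and after quantile normalisation 9 did, with 1.85% of all clusters. With sex as a term there were 3, with 1.77% of all clusters, and among male embryos alone 0, with 1.11% of all clusters. The median difference of the 37 genes stayed between 0.76 and 0.88 over the leave-one-out fits of these 7 arrays and was 0.69 with the block. Among males it was 0.82, from the same Klf8gt and WT arrays as the fit without Klf8gt replicate 4.

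**Figure D2:**
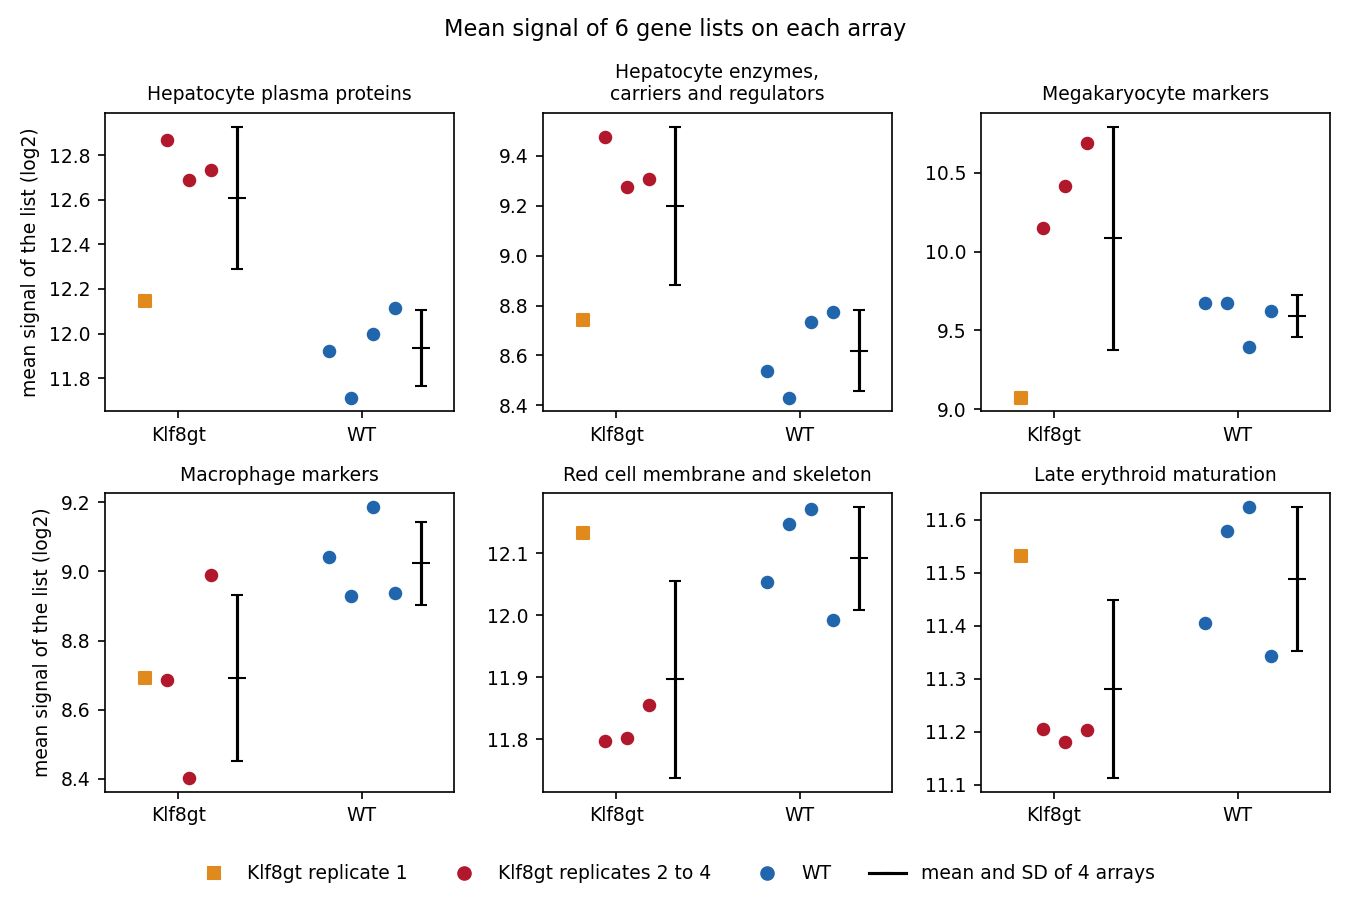
Mean log2 signal of 6 gene lists on each Klf8gt array (left) and WT array (right), with the mean and SD of each group. Hepatocyte and megakaryocyte lists lay higher and red cell membrane and maturation lists lower in Klf8gt replicates 2 to 4 than on every WT array, and replicate 1 (square) lay apart from them in those 5 lists.

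How far the differences follow the hepatocyte signal was measured by adding the mean of the 15 plasma protein genes to the model. That mean was 12.14 in Klf8gt replicate 1, between 12.69 and 12.87 in Klf8gt replicates 2 to 4, and between 11.71 and 12.12 in WT arrays. With it as a covariate and without replicate 1, 12 clusters passed (0.0513% of 23410), 11 higher (0.047%) and 1 lower (0.00427%), and 9 of them were among the 1683. At an unadjusted p under 0.05 there were 2365 (10.1%). The difference with the covariate was 0.53 times that without it at the median of the 1079 higher clusters, 0.87 times at the median of the 604 lower ones and 0.57 times over all tested clusters. Standard errors grew to 1.14 and 1.37 times their size in the higher and lower clusters. The list of enzymes then had a median of 0.19. The list of plasma proteins had -0.03, which was largely fixed in advance, since the covariate is the mean of these same 15 genes. The plasma protein means of Klf8gt replicates 2 to 4 and of WT do not overlap, so within these groups the trap and the hepatocyte signal cannot be told apart by the covariate.

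The genes that kept a call with the covariate were Pop4 (difference with the covariate 1.19 ± 0.11 SE, limma adjusted p = 0.00134), Saa3 (1.91 ± 0.22 SE, adjusted p = 0.00581), Bcl6 (0.77 ± 0.11 SE, adjusted p = 0.0168), Cdon (-0.82 ± 0.12 SE, adjusted p = 0.0168), Cp (ceruloplasmin, 1.09 ± 0.17 SE, adjusted p = 0.0298), Serpina7 (thyroxine-binding globulin, 1.14 ± 0.16 SE, adjusted p = 0.0168), the miRNA genes Mir300 and Mir122, and a cluster with several gene symbols. Dennd2d, Limd1 and Slc6a20a passed with the covariate alone. Cp, Serpina7, the miRNA genes and these last 3 were named after their values were seen. The calls depended on the covariate's make-up, since 2 clusters passed with the enzyme list in place of the plasma proteins. With the plasma protein covariate and DKO replicate 1 left out too, 0 passed. The plasma protein mean of DKO replicate 1, 10.97, was the lowest of the 15 arrays. Without that array standard errors were 2.4 and 2.9 times those of the fit without covariate, in the higher and lower clusters.

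**Figure D3:**
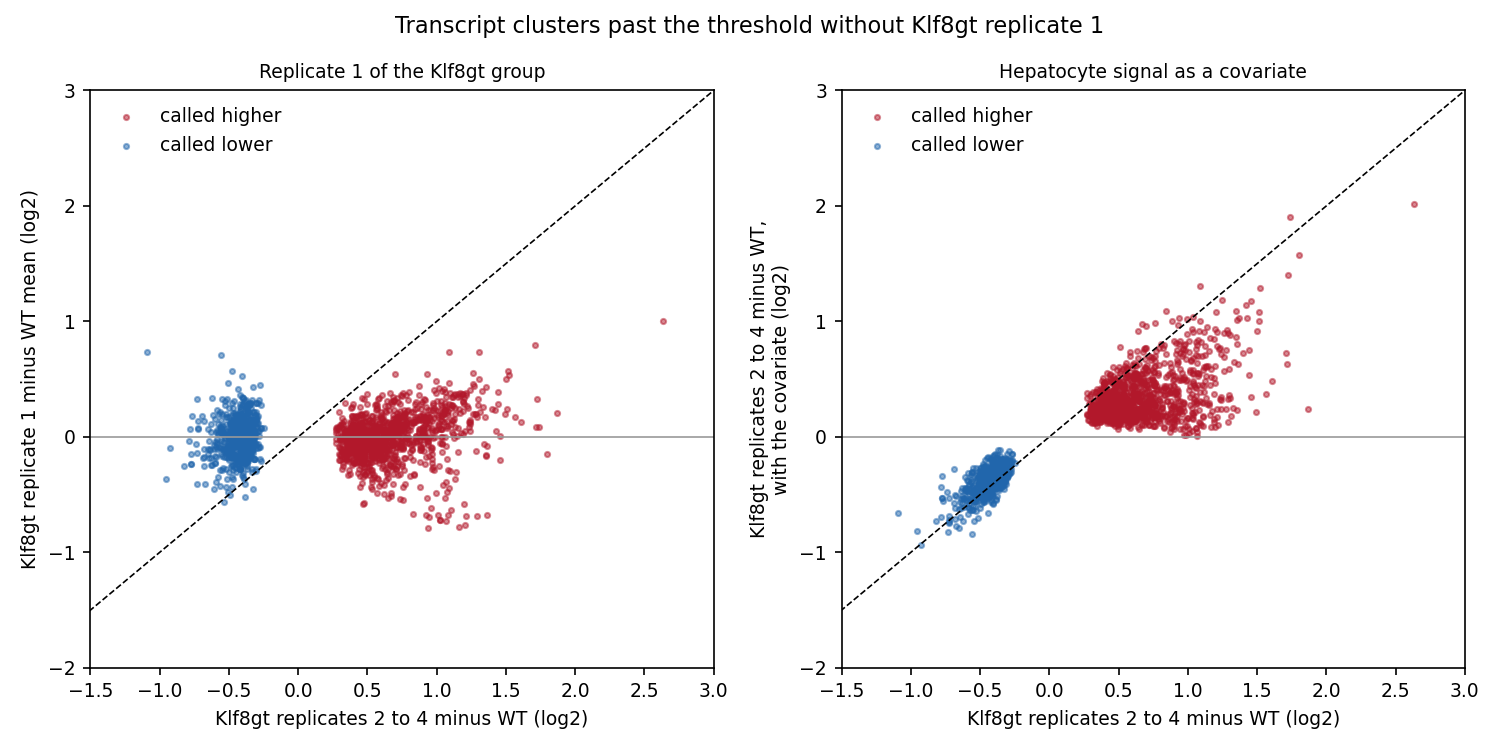
The 1683 clusters past the threshold without Klf8gt replicate 1, with the log2 difference of Klf8gt replicates 2 to 4 from WT on both horizontal axes (red, 1079 higher; blue, 604 lower). The left vertical axis gives replicate 1 minus the WT mean, with points around 0, and the right one the difference with the hepatocyte covariate, with the higher clusters below the diagonal of equality (dashed) at a median of 0.53 times the plain difference.

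Megakaryocyte transcripts moved alongside. Of 7 markers measured, Itgb3 and Treml1 rose without Klf8gt replicate 1, so 28.6% of the list against 4.61% of all clusters, and the list had a median of 0.96. Itgb3, the platelet integrin beta 3, had 8.82, 10.28, 10.57 and 10.82 in Klf8gt arrays, against 9.53, 9.65, 9.27 and 9.68 in WT arrays (2.03-fold without replicate 1, limma adjusted p = 0.0350). Treml1, a receptor of platelet granules, had 8.33, 9.40, 9.58 and 9.84 in Klf8gt arrays and 8.77, 8.85, 8.40 and 8.48 in WT arrays (1.97-fold, adjusted p = 0.0211). In both genes replicates 2 to 4 lay above WT, and replicate 1 lay below all WT arrays, the opposite side. Pf4 (platelet factor 4) and Ppbp (a platelet chemokine) differed by 0.96 ± 0.30 and 1.02 ± 0.30 SE without passing (adjusted p = 0.0629 and 0.0565). With the mean of this list as a covariate 80 clusters passed, 41 of them among the 1683. Standard errors over the 1683 grew to 1.38 times their size. That mean lay between 10.15 and 10.69 in Klf8gt replicates 2 to 4 and between 9.40 and 9.67 in WT arrays. Without overlap, the trap and the megakaryocyte signal cannot be told apart by this covariate. Leaving out 1 more array gave 0 to 5 megakaryocyte calls, while calls over all clusters in either direction ranged from 82 to 2917.

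Of 12 progenitor genes, Hlf and Meis1, transcription factors of haematopoietic stem and progenitor cells, rose without replicate 1, and Hoxa9 fell at signals below the medians. Both risers are 16.7% of the list, against 4.61% of all clusters, and the 1 that fell is 8.33%, against 2.58%. The list as a whole had a median of 0.09 without replicate 1, with 7 members above 0 and 5 below. Meis1 had 7.84, 8.86, 8.89 and 9.11 in Klf8gt arrays and 8.02, 7.78, 8.03 and 8.19 in WT arrays (1.92-fold, limma adjusted p = 0.0130). Hlf had 7.38, 7.93, 7.93 and 7.90 in Klf8gt arrays and 7.25, 7.18, 7.33 and 7.51 in WT arrays (1.52-fold, adjusted p = 0.0287). In Hlf and Meis1 replicate 1 lay within the WT range. Meis1 is also expressed in megakaryocytes and Hlf in liver. With the hepatocyte covariate the difference was 0.21 ± 0.13 SE for Hlf and 0.51 ± 0.18 SE for Meis1 (limma adjusted p = 0.613 and 0.353). With the megakaryocyte covariate it was 0.34 for Hlf and 0.72 for Meis1 (adjusted p = 0.361 and 0.179). As above, neither covariate can be told apart from the trap in these arrays.

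**Figure D4:**
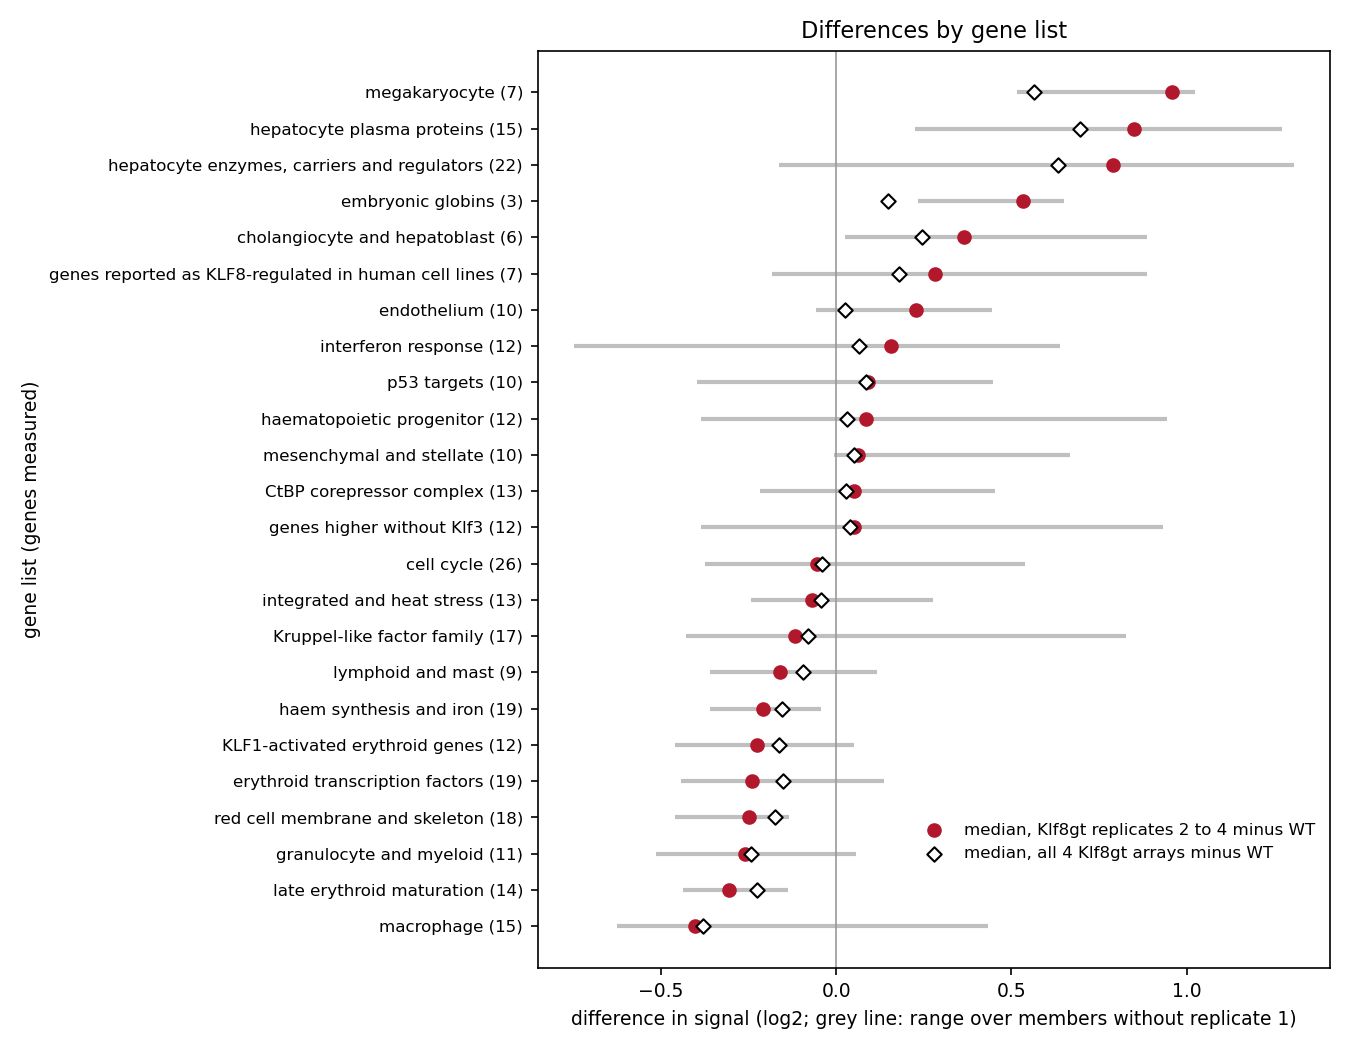
Median log2 difference from WT of 24 gene lists, without Klf8gt replicate 1 (filled) and with all 4 Klf8gt arrays (open), with the range over members without replicate 1 as a grey line. Megakaryocyte and hepatocyte lists had the highest medians (0.96, 0.85 and 0.79 without replicate 1), and the macrophage list the lowest (-0.40).

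No erythroid gene of the lists passed, in either direction. Without Klf8gt replicate 1 the medians were -0.24 over 19 erythroid transcription factors, -0.23 over 12 KLF1-activated genes, -0.21 over 19 genes of haem synthesis and iron, -0.25 over 18 genes of the red cell membrane and skeleton and -0.31 over 14 genes of late maturation. All 19, 18 and 14 members of the last 3 lists had a difference below 0, while the median of all tested clusters was -0.03. The membrane list averaged 12.13, 11.80, 11.80 and 11.86 in Klf8gt arrays, against 12.05, 12.15, 12.17 and 11.99 in WT arrays. Replicates 2 to 4 were below every WT array and replicate 1 within the WT range. A model of the 7 Klf8gt and WT arrays alone called 5.5% of all clusters lower. Among them were 8 of these 18 genes, 7 of the 14 maturation genes, 5 of the 19 transcription factors, 5 of the 12 KLF1-activated genes and 3 of the 19 genes of haem synthesis and iron. Of the 15 macrophage markers 4 passed as lower in that model. With the hepatocyte covariate the medians of the erythroid lists were 0.09, 0.05, 0.01, 0.03 and 0.17, in the order first given. With the megakaryocyte covariate they were -0.13, -0.03, -0.16, -0.06 and 0.22. The means behind both covariates do not overlap between Klf8gt replicates 2 to 4 and WT, so neither can be told apart from the trap here.

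Embryonic globins, which mark primitive red cells and are low in definitive ones, overlapped between the groups. Hbb-y, an embryonic beta-like globin, averaged 14.04 in Klf8gt arrays and 13.98 in WT arrays (exact permutation p = 0.714). Hbb-bh1 averaged 10.82 ± 0.71 in Klf8gt arrays and 10.51 ± 0.66 in WT arrays (SD, n = 4 each, exact permutation p = 0.543). Hba-x, the embryonic alpha-like globin, averaged 11.90 in Klf8gt and 11.75 in WT arrays (exact permutation p = 0.743). Each of these p-values was 0.971 after adjustment over the 5 genes tested this way. Of 12 genes that earlier results of these arrays had shown to be higher without Klf3, 0 passed with or without replicate 1. Their median difference was 0.05, and Lgals3 (galectin-3) was at -0.38 ± 0.25 SE without replicate 1 (limma adjusted p = 0.350).

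Within the Kruppel-like factor family, 17 genes were measured. Klf7 rose and Klf14 fell without Klf8gt replicate 1, each 5.88% of the family, while 4.61% of all clusters rose and 2.58% fell. Klf7, a factor of neurons and of progenitor cells, had 7.34, 8.32, 8.37 and 8.46 in Klf8gt arrays and 7.78, 7.79, 7.97 and 8.12 in WT arrays (1.38-fold, limma adjusted p = 0.0475). Klf14 had 8.37, 7.94, 7.90 and 7.70 in Klf8gt arrays and 8.19, 8.26, 8.22 and 8.44 in WT arrays (1.35-fold lower, log2 difference -0.43 ± 0.11 SE, adjusted p = 0.0327). In Klf7 replicate 1 was below all WT arrays, and in Klf14 it was within their range. Klf12, a CtBP-binding repressor closely related to KLF3 and KLF8, differed by 0.83 ± 0.26 SE without passing (adjusted p = 0.0648). Klf1, the erythroid activator, differed by -0.16 ± 0.10 SE (adjusted p = 0.338). Of 13 genes of the CtBP corepressor complex 0 passed.

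Genes reported as KLF8-regulated in human cell lines were checked as a list of 7. Cdh1, which encodes E-cadherin and which human KLF8 is reported to repress, was the 1 member that rose without replicate 1 (14.3% of the list, against 4.61% of all clusters). Its signals were 8.19, 9.36, 9.02 and 9.13 in Klf8gt arrays and 8.10, 8.10, 8.37 and 8.55 in WT arrays, with replicate 1 within the WT range (1.85-fold, limma adjusted p = 0.0346). Cdh1 is also a marker of hepatoblasts. Its difference was 0.17 ± 0.14 SE with the plasma protein covariate (adjusted p = 0.735), -0.07 with the enzyme list as the covariate (adjusted p = 0.948) and 0.87 with the megakaryocyte covariate (adjusted p = 0.226). The means behind these covariates do not overlap between Klf8gt replicates 2 to 4 and WT, so they cannot be told apart from the trap. Ccnd1 (cyclin D1) and Mmp14 (a membrane metalloproteinase), which human KLF8 is reported to activate, differed by 0.54 ± 0.20 and 0.65 ± 0.20 SE without passing (adjusted p = 0.107 and 0.0601). Mmp9, Klf4, Epsti1 and Cxcr4 did not pass.

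Macrophage markers lay lower in Klf8gt cells on balance, but 0 of 15 passed with or without replicate 1 (medians -0.40 without it and -0.38 with it). Their mean was 8.69, 8.69, 8.40 and 8.99 in Klf8gt arrays and 9.04, 8.93, 9.19 and 8.94 in WT arrays. Klf8gt replicate 4 overlapped with WT. Csf1r, the receptor of macrophage colony stimulating factor, differed by -0.57 ± 0.42 SE without replicate 1 (limma adjusted p = 0.404), and Cd5l by -0.63 ± 0.37 SE (adjusted p = 0.288). Among lists of granulocytes, endothelium, mesenchymal and stellate cells, lymphoid and mast cells, cell cycle, interferon response and stress, 0 genes passed without replicate 1. Of 10 p53 targets 1 rose (10%, against 4.61% of all clusters), the death receptor Fas, at signals below the medians (0.45 ± 0.11 SE, adjusted p = 0.0292). Among male embryos alone, and with replicate number as a block, 0 of the 10 passed as higher.

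A block of miRNA genes on chromosome 12 stood out by position. MicroRNAs are short RNAs that pair with messages through their seed, and the genes between Dlk1 and Dio3 form a large imprinted cluster whose miRNAs are processed from maternally expressed transcripts such as Meg3 and Rian. These genes fall outside the rule by which single genes are named, and are described because of the values found. The arrays read the transcript of the miRNA gene, so the arms of the mature miRNA are not measured separately. Of 305 clusters named for a single miRNA gene or miRNA host gene, 32 rose (10.5%) and 27 fell without Klf8gt replicate 1. Of all clusters 4.61% rose and 2.58% fell, and 0 of the 305 passed with all arrays. Between Dlk1 and Dio3, 20 of 40 rose (50%) and 1 fell, and 39 of 40 had a difference above 0, with a median of 0.81. Among the other 265 clusters, which include those of the host genes Mir99ahg and Mir17hg, 12 rose and 26 fell, with a median of -0.09.

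The mature miRNAs of the 3 genes with the largest differences in this block are shown with both arms, since either may be active, and with them the pair among the 20 risen genes that shares a seed. Sequences are RefSeq's on GRCm38.p6, all from the plus strand of chromosome 12, and capitals mark the seed, bases 2 to 8. All 20 risen genes had an entry, with 38 mature miRNAs and 37 different seeds.
miR-300-5p (chr12:109724318-109724339): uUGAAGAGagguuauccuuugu
miR-300-3p (chr12:109724363-109724384): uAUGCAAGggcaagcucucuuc
miR-380-5p (chr12:109711806-109711827): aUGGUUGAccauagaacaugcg
miR-380-3p (chr12:109711842-109711863): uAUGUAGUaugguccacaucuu
miR-377-5p (chr12:109740515-109740536): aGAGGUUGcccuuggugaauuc
miR-377-3p (chr12:109740553-109740574): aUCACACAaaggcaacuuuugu
miR-379-3p (chr12:109709102-109709123): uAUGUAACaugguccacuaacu
miR-411-3p (chr12:109710225-109710246): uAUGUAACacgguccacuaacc
Only miR-379-3p and miR-411-3p shared a seed within the 38, so the genes that rose do not form 1 seed family.

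Mir300 had log2 signals of 5.76, 7.77, 7.05 and 7.34 in Klf8gt arrays, against 4.81, 4.91, 4.71 and 4.60 in WT arrays. Every Klf8gt array was above WT, replicate 1 included, and the WT mean was under every WT array's lower quartile (difference without replicate 1 of 2.63 ± 0.24 SE, limma adjusted p = 2.48e-04). Mir380 had 6.30, 8.04, 7.71 and 8.03 in Klf8gt arrays, against 6.16, 6.10, 6.26 and 6.30 in WT arrays (1.72 ± 0.36 SE, adjusted p = 0.0199). Mir382, with both means above the array medians, had 6.63, 8.20, 7.89 and 8.13 in Klf8gt arrays and 6.62, 6.79, 6.53 and 6.90 in WT arrays (2.57-fold, adjusted p = 0.0199). In Mir380 and Mir382 replicate 1 lay within the WT range. Mir666 was the gene of the block that fell (1.32-fold lower, log2 difference -0.40 ± 0.11 SE, adjusted p = 0.0456).

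Long transcripts of the same region had differences in the same direction, except Dio3. Rian, a maternally expressed non-coding RNA that hosts small RNAs, had 8.54, 10.30, 10.13 and 9.98 in Klf8gt arrays and 8.45, 8.05, 8.38 and 8.73 in WT arrays. Replicates 2 to 4 were above all WT arrays and replicate 1 among them, and the difference without replicate 1 of 1.74 ± 0.52 SE did not pass (limma adjusted p = 0.0583). Meg3 differed by 0.36 ± 0.21 SE (adjusted p = 0.280), and the paternally expressed Dlk1, a marker of hepatoblasts, by 0.41 ± 0.18 SE (adjusted p = 0.152) and Rtl1 by 0.65 ± 0.20 SE (adjusted p = 0.0602). Dio3, at signals below the medians, differed by -0.25 ± 0.17 SE (adjusted p = 0.340).

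The miRNA block was also fitted with the hepatocyte and megakaryocyte covariates. Their means do not overlap between Klf8gt replicates 2 to 4 and WT, so they cannot be told apart from the trap here. With the hepatocyte covariate the median of the 40 genes of the block was 0.36. Of these 1 passed, Mir300 (difference with the covariate 2.02 ± 0.24 SE, limma adjusted p = 0.00581). The difference with the covariate was 0.42 times that without it at the median of the 40 genes, against 0.57 times over all tested clusters. With the enzyme list as the covariate the median was 0.23 and 0 of the 40 passed as higher (0.00854% of all clusters did), and 0 passed with the plasma protein covariate when DKO replicate 1 was left out too. With the megakaryocyte covariate the median was 0.73 and 3 passed as higher (0.167% of all clusters). Leaving out 1 more array gave 8 higher calls without Klf8gt replicate 2, where 119 of all 23410 clusters were called higher. There were 7 without Klf8gt replicate 4 (61 of all clusters), 10 without WT replicate 1 (263) and 8 without WT replicate 2 (179). The median stayed between 0.74 and 0.86 over the leave-one-out fits of the 7 arrays. Among male embryos alone 20 of the 40 passed as higher (1.11% of all clusters), and with sex as a term 13 did (1.77%). Under the trap in Klf3-null cells the median of the 40 genes was 0.22. Outside the block, Mir122, the abundant miRNA of hepatocytes, had 5.63, 6.57, 6.36 and 6.21 in Klf8gt arrays, against 5.32, 5.31, 5.23 and 5.52 in WT arrays, with no overlap. Its difference without replicate 1 was 1.03 ± 0.11 SE (adjusted p = 3.57e-04).

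**Figure D5:**
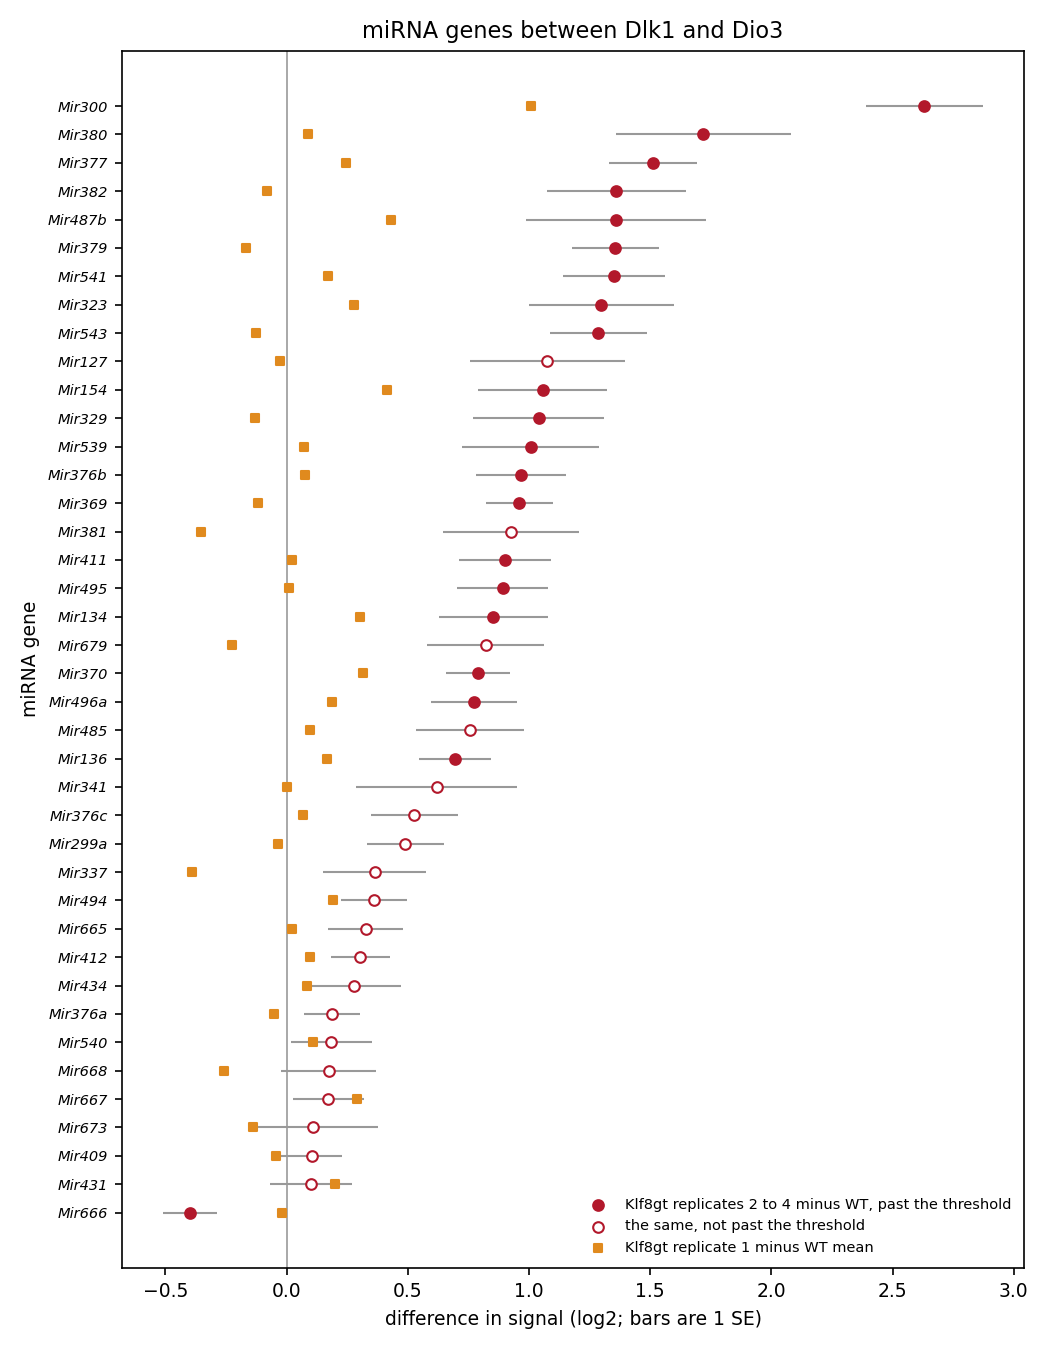
Log2 difference from WT of the 40 miRNA genes between Dlk1 and Dio3, ordered by size, for Klf8gt replicates 2 to 4 (circles with 1 SE; filled where past the threshold) and for replicate 1 (squares). For 39 of 40 genes the difference without replicate 1 was above 0, and for most genes replicate 1 lay near 0.

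KLF8 and KLF3 bind CACCC-type sites, so promoters were searched for CACCC on both strands, which reads GGGTG where it lies on the other one. The windows were RefSeq's on GRCm38.p6, 300 bases each, mostly upstream of the gene's start. The motif was found in 65.6% of the risen genes (503 of 767 with a promoter entry), in 68.0% of the fallen genes (279 of 410) and in 63.5% of all genes tested (9919 of 15614). The promoters of the gene with the smallest adjusted p in each direction among the named genes, Pop4 and Cdon, are shown, with matches in capitals.
Pop4 (chr7:38271299-38271598, minus strand): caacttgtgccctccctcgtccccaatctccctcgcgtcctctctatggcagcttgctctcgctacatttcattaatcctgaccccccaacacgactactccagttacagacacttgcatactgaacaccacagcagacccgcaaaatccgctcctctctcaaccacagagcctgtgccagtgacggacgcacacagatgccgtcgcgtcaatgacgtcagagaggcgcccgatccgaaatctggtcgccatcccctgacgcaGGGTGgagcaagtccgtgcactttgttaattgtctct
Cdon (chr9:35451826-35452125, plus strand): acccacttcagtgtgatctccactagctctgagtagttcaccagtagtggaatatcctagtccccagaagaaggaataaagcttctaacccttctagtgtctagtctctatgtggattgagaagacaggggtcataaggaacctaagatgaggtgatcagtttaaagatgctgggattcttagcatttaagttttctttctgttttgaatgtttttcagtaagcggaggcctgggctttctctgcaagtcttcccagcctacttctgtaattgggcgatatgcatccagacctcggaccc
The Pop4 window held 1 match and the Cdon window 0. These counts describe letters in the windows and say nothing of binding.

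Whether the trap acts alike with and without Klf3 was tested as the difference between its effects in DKO against Klf3KO and in Klf8gt against WT, which share no array. With all arrays 1 cluster passed (0.00427% of 23410), Itgb7, the beta 7 integrin subunit. The trap gave Itgb7 a difference of 1.47 ± 0.16 SE in Klf3-null cells (limma adjusted p = 0.00346; means 8.09 in DKO and 6.62 in Klf3KO) and of -0.21 ± 0.15 SE in Klf3-intact cells (5.92 in Klf8gt and 6.14 in WT), so the effects differed by 1.68 ± 0.22 SE (adjusted p = 0.0311). Without Klf8gt replicate 1, 718 clusters passed (3.07%).

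The clusters called in Klf3-intact cells without replicate 1 were also looked up in Klf3-null cells. Of the 1079 risen clusters 32.9% had the same sign in DKO against Klf3KO, and of the 604 fallen ones 43.4%, against 48.8% of all tested clusters. The median difference of DKO from Klf3KO was -0.10 over the 1079 and 0.01 over the 604. Hepatocyte plasma proteins averaged 10.97, 12.17, 12.22 and 12.27 in DKO and 12.12, 12.11 and 12.39 in Klf3KO, with overlap. For Saa3 the difference was -0.14 ± 0.32 SE in Klf3-null cells, and the effects differed without replicate 1 (-1.88 ± 0.23 SE, limma adjusted p = 0.00267). For Cdon it was -0.06 ± 0.14 SE, and the effects differed by 0.90 ± 0.13 SE without replicate 1 (adjusted p = 0.00698). With all arrays the effects did not differ past the threshold (limma adjusted p = 0.193 for Saa3 and 0.133 for Cdon). Both genes were named for their difference in Klf3-intact cells, which this contrast contains. Its p-values for them are therefore no independent test.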

How the data were processed

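RNA of TER119-positive fetal liver cells was hybridised to Affymetrix mouse arrays, 1 per sample, labelled with biotin, per the labels' protocols. The authors deposited log2 values, 1 per transcript cluster and array; the submitters' processing notes name RMA and Partek, with no version. Background correction, normalisation between arrays and summarising of probes were thus done before deposit, which pulls array medians together (6.28 to 6.41). For the array platform, no genome build is stated in labels or files. Of 35556 clusters 21789 had 1 gene symbol, 1621 several and 12146 none in a platform annotation of 2016. Gene identifiers of 21698 clusters matched GRCm38.p6, which changed 0 symbols. A gene with several clusters entered a list through its brightest one, and clusters with several symbols name no gene.

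One mean per genotype was fitted to the 15 log2 columns with limma 3.58.1 (lmFit, eBayes without trend) in R 4.3.3, and again to 14 without Klf8gt replicate 1. Tests were two-sided, and p-values were adjusted by Benjamini and Hochberg over the 23410 clusters with a symbol, with a threshold of 0.05. Every adjusted p is from limma unless another test is named. Precision is limited by the number of arrays; the median standard error was 0.112 with all arrays and 0.114 without Klf8gt replicate 1. The test was tested on simulated data. Covariates were the array means of marker lists. No 2 arrays held identical values, and replicate numbers did not pair Klf8gt with WT arrays, with correlations of same-numbered deviations of 0.128, -0.276, -0.121 and 0.090. The 25 gene lists (301 of 328 genes measured) and all comparisons were chosen with earlier results of these data known. Genes were named by a rule: Klf8, Klf3 and embryonic globins; list members past the threshold; the 10 largest called changes in each direction with no overlap between the groups' arrays; failing that, the 5 with the smallest p. Predicted genes, Riken clones and miRNA genes were skipped.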

Additional observations from a re-analysis of the deposited data

Results flagged for a closer look

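In groups of 4 arrays, an array was singled out where its gap to the nearest other array, divided by the range of the group, exceeded 0.829, Dixon's critical value. Chance alone does so in about 1 in 20 groups. Of 176 groups looked at, 20 had such an array, 15 of them in the Klf8gt group, and there it was replicate 1 in 14 cases. Of those 14, 10 were genes, and 8 of the 10 (all but Pop4 and Hba-x) are named because they passed without replicate 1. The distance of replicate 1 in these 8 is thus largely fixed by how they were chosen, and the rate of 1 in 20 is no yardstick for them.

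Klf8gt replicate 1 was far from the other 3 Klf8gt arrays in Hlf (gap over range 0.952), Pop4 (0.945), DQ267101 (0.929), Ankrd9 (0.919), Klf7 (0.872), Hba-x (0.870), Fgb (0.854), C1s1 (0.848), Itih3 (0.841) and Olfr715b (0.841). The same array stood off in the means of the lists of endothelium (0.952), late erythroid maturation (0.929), KLF1-activated erythroid genes (0.874) and the CtBP corepressor complex (0.852). Klf8gt replicate 3 was low in the mean of stress genes (0.902).

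In the WT group, replicate 2 was low in Serpinc1 (0.899) and Fga (0.883), replicate 4 was low in Ankrd9 (0.834) and high in the mean of the CtBP complex (0.839), and replicate 1 was high in Epp13 (0.840). Both Serpinc1 and Fga are hepatocyte genes, and WT replicate 2 also had the lowest mean of hepatocyte plasma proteins among the WT arrays (11.71).

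The effect of the trap differed between Klf3-null and Klf3-intact cells in Itgb7, by an interaction term of 1.68 on the log2 scale (limma adjusted p = 0.0311). This call held in 12 of 26 alternative settings.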

How the results depend on the processing

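Limits first. The comparison without Klf8gt replicate 1 leaves out an array for its values, sex differs between the groups and is not in the labels, and the hepatocyte signal differs along with genotype in the arrays compared. Which of these lies behind the calls was not tested. Alternatives that use marker lists other than hepatocyte plasma proteins or macrophages as covariates, or that leave out DKO replicate 1 from the comparison without Klf8gt replicate 1, were added after seeing the data. Signals below the array medians limit what can be said of weak genes.

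With all Klf8gt arrays, the count of 0 clusters became 4081 with array weights and 1 with a macrophage covariate. It ranged from 0 to 1683 when 1 array was left out, 1683 without Klf8gt replicate 1. It stayed 0 with replicate number as a replicate block, with quantile normalisation and with median centring. The fit of male embryos alone leaves out Klf8gt replicates 1 and 4, so its count is given with those without replicate 1. Without Klf8gt replicate 1, the count of 1683 was 3914 in a model of the 7 Klf8gt and WT arrays, 5256 with array weights, 935 with quantile normalisation, 640 with replicate number as a block, 625 with sex as a term and 318 among male embryos alone. With covariates it was 12 (hepatocyte plasma proteins), 2 (hepatocyte enzymes), 4084 (macrophage), 80 (megakaryocyte) and 160 (hepatocyte and megakaryocyte), and it was 0 with the plasma protein covariate and DKO replicate 1 left out too. Leaving out 1 more array gave 82 to 2917. The count of 1 interaction was 0 over all rows of the table, 0 over clusters above the median signal, 1183 with array weights, 13 with replicate number as a block, 0 with sex as a term, 411 among male embryos alone, 4 with the hepatocyte covariate and 0 with the macrophage covariate. Leaving out 1 array gave 0 to 718, with 386 without DKO replicate 4 and 32 without DKO replicate 2.

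Signs turned in Klf8, Klf3 and the embryonic globins, which passed no test in this comparison, and in other genes under hepatocyte covariates. Most of the others are hepatocyte genes, where the covariate holds the same genes or those of the other hepatocyte list. Cdh1, called higher, and Rny1 and Ankrd9, called lower without Klf8gt replicate 1, also turned, and the cause was not tested. Over all 4 Klf8gt arrays, Klf3 was at 0.040 with array weights, 0.043 with sex as a term, 0.027 among males, 0.17 with the hepatocyte covariate, 0.013 without Klf8gt replicate 1 and 0.073 without WT replicate 4. Klf8 was at -0.0027 with median centring, -0.13 with the macrophage covariate, -0.0062 without Klf8gt replicate 1 and -0.054 without WT replicate 1. Leaving out 1 array gave -0.054 to 0.088 for Klf8, -0.057 to 0.073 for Klf3, -0.11 to 0.23 for Hbb-y and -0.20 to 0.53 for Hba-x. Hbb-y was at -0.18 with the hepatocyte covariate, -0.052 without Klf8gt replicate 4 and -0.11 without WT replicate 1; Hba-x at -0.58, -0.013 and -0.20 in the same settings, and Hbb-bh1 at -0.50 with the hepatocyte covariate. Without Klf8gt replicate 1 and with the enzyme covariate, Fga was at -0.071, Fgb at -0.25, Fgg at -0.19, Ahsg at -0.23, Vtn at -0.25, Foxa3 at -0.028, Hpd at -0.046, Otc at -0.039, Bhmt at -0.098, Slc2a2 at -0.026, F10 at -0.13, Serpinc1 at -0.10, Itih3 at -0.062 and Cdh1 at -0.074. With the plasma protein covariate and DKO replicate 1 left out too, Fgg was at -0.025, Vtn at -0.019, Foxa3 at -0.17, Hpd at -0.049, Otc at -0.076, Bhmt at -0.13, Fabp1 at -0.0034, Slc2a2 at -0.17, Itih3 at -0.10, Rny1 at 0.30 and Ankrd9 at 0.044. Vtn was at -0.086 with hepatocyte and megakaryocyte covariates together.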
